A study of Mus musculus with 6 samples.

Results

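The acinar cell of the exocrine pancreas was represented here by 8 genes that are not digestive enzymes: the transcription factors Ptf1a, Rbpjl, Bhlha15, Nr5a2 and Gata4, the cholecystokinin receptor Cckar, the secreted serpin Serpini2 and the mitochondrial enzyme Gatm. They were taken as a fixed list of genes, and each probe set that the array annotation gives to 1 of them, under its current or an older symbol, was used. This gave 14 probe sets of the 45037 tested, with 4 probe sets for Nr5a2, 2 each for Rbpjl, Bhlha15 and Gata4, and 1 each for the other 4 genes. Cckar is the only cell surface receptor among them, Nr5a2 is a receptor of the nuclear family, and Serpini2 and Gatm are neither regulators nor receptors.

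Splenic RNA of female NOD mice, an inbred strain with spontaneous autoimmune diabetes, was hybridized to 6 Affymetrix mouse genome arrays in 3 groups of 2. Untreated diabetic mice had become overtly diabetic, TSA-treated mice had received trichostatin A, an inhibitor of histone deacetylases, and untreated non-diabetic mice had never developed the disease. TSA was given under the skin once a week at 500 µg/kg between 18 and 24 weeks of age, and the mice taken for the arrays were those that stayed free of diabetes. Each group was 1 RNA pool, of 3 to 5 mice by the labels, and the 2 arrays of a group are 2 hybridizations of that pool. Errors and p-values below therefore describe hybridizations and not mice. An age of 32 to 36 weeks is on the label of every sample, whereas the methods describe the diabetic mice as younger than that range and the treated mice as partly younger. The labels name splenocytes as the source, and the methods describe RNA from whole spleens. In such bulk RNA fewer cells of a type and less RNA per cell cannot be told apart.

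Acinar cells synthesize the digestive enzymes and release them from zymogen granules when cholecystokinin, a hormone of the gut, or a vagal signal reaches them. Their enzyme genes are driven by PTF1, a complex in which the tissue-specific factor Ptf1a joins a widely expressed E protein (Tcf3, Tcf4 or Tcf12) and either Rbpj or its pancreas-restricted paralog Rbpjl. Nr5a2 is a nuclear receptor that works beside PTF1 on the same genes, Bhlha15 (Mist1) sets up the secretory apparatus, and Gata4 acts in the growth of the pancreas. Transcripts of enzymes are among the most abundant of the acinar cell, and those of its regulators are much rarer. The comparison asks whether the regulators and receptors accompany the enzyme transcripts found in these spleens.

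Promoters are shown for the member with the largest difference between diabetic and non-diabetic mice (Serpini2), for a partner in the PTF1 complex (Rbpjl) and a factor with a level well above background (Bhlha15), and for 2 enzymes whose transcripts were called (Cpb1 and Cela3b). They come from RefSeq on build GRCm38.p6 and run from 250 bases before to 50 bases after the annotated start site, 5′ to 3′ along the gene. Capitals mark CACCTG, the E-box of the PTF1 site, or the same letters read on the opposite strand (CAGGTG). The windows are chr3:75270029-75270328 (minus strand) for Serpini2, chr2:164402944-164403243 (plus strand) for Rbpjl, chr5:144190036-144190335 (plus strand) for Bhlha15, chr3:20275684-20275983 (minus strand) for Cpb1 and chr4:137430471-137430770 (minus strand) for Cela3b.
Serpini2: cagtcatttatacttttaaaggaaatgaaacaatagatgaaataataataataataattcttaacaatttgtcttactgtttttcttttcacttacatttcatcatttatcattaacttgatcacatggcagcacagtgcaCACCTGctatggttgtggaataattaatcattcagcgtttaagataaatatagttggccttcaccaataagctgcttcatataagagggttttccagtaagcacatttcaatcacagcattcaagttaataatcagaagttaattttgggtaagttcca
Rbpjl: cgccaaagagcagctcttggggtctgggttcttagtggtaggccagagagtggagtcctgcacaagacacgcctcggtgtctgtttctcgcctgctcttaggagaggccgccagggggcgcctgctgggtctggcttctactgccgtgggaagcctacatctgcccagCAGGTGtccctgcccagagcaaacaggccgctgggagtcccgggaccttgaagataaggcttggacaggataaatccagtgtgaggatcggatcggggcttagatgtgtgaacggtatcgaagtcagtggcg
Bhlha15: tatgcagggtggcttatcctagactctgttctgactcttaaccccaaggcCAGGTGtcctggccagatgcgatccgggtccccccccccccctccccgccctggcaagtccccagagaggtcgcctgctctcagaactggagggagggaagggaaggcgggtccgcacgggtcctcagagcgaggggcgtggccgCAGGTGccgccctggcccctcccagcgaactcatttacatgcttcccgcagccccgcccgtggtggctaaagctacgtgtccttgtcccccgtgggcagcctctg
Cpb1: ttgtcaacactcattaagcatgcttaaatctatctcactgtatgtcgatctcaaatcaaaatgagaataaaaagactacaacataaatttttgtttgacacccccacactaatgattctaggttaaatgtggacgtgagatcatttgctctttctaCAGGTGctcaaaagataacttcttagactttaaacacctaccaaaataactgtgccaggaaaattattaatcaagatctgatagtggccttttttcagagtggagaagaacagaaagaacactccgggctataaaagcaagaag
Cela3b: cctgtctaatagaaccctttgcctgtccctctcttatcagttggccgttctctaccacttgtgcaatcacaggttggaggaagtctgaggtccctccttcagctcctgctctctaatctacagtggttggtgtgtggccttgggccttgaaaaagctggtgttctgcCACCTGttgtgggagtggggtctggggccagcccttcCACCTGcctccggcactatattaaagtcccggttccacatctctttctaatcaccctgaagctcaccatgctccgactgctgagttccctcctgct
The match lies 109 bases before the start site in Serpini2, 82 bases before it in Rbpjl, and 200 and 55 bases before it in Bhlha15. RefSeq promoters were at hand for 6 of the 8 members (7 promoters, since Nr5a2 has 2), and CACCTG on either strand was found in 5 of the 6 genes, Ptf1a being the exception. The same letters were in 10 of 15 enzyme genes and in 20.2% of 32851 mouse promoters of this length. The shares over all promoters count single promoters and not genes, and Nr5a2 held CACCTG in 1 of its 2. All promoters shown here hold CACCTG on 1 of the strands, whereas that of Cpa1, also a called enzyme, does not. TTTCCC, the TC-box of the PTF1 site, was found in 1 of the 6 members (Nr5a2), 6 of the 15 enzyme genes and 25.2% of all promoters. AAGGTCA, the site of Nr5a2, was in 0 of 6 members, 3 of 15 enzyme genes and 4.72% of all promoters. Both strands were searched, and no match of one motif shared bases with a match of another in these member and enzyme promoters. A match is a description of the letters in this window and says nothing of binding in the spleen.

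No member passed the test in any comparison. At an adjusted p under 0.05 from limma, 0 of the 14 probe sets were called between diabetic and non-diabetic mice, where 0.0888% of all probe sets were called. The count was 0 of 14 between TSA-treated and non-diabetic mice (0.0688% of all probe sets) and 0 of 14 between diabetic and TSA-treated mice (0.0266% of all probe sets). At an unadjusted p under 0.05 the members gave 2, 0 and 2 probe sets in these 3 comparisons, where 6.27%, 14.7% and 4.27% of all probe sets passed. Both hits of each count were Serpini2 and Cckar, and the methods' t-test called no member after adjustment either. The enzymes did pass: 14 of the 17 digestive enzymes with a probe set of their own rose in diabetic mice against non-diabetic mice.

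**Figure D1:**
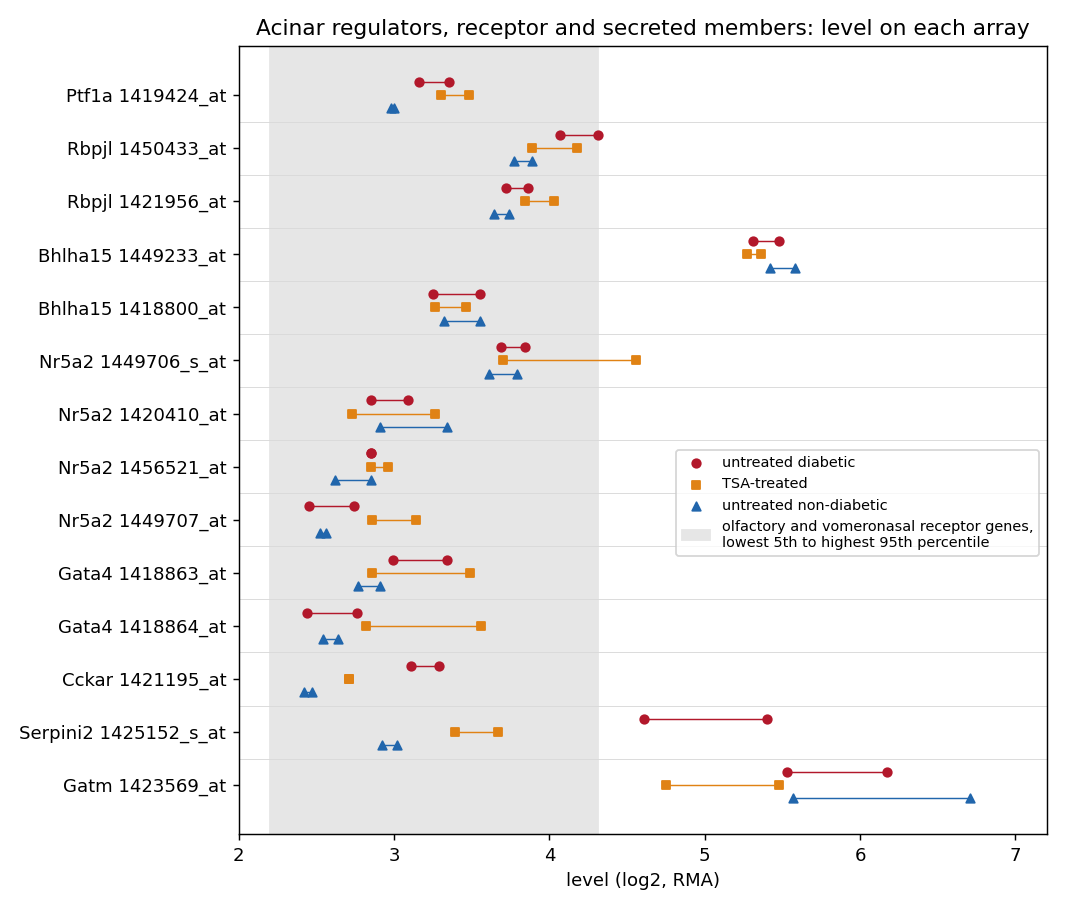
Level (log2, x axis) of each of the 14 member probe sets (rows) on each of the 6 arrays, with the 2 arrays of a group joined by a line; the grey band runs from 2.20 to 4.31, the lowest 5th and the highest 95th percentile over the arrays of 80 olfactory and vomeronasal receptor probe sets. Serpini2 lies above the band in diabetic mice and inside it in the other groups, Gatm and 1 Bhlha15 probe set lie above it on every array, and most other points lie inside it.

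The 2 PTF1 subunits on the list did not pass the test in any comparison. Ptf1a (1419424_at), the basic helix-loop-helix subunit that gives PTF1 its tissue specificity, had log2 levels of 3.16 and 3.35 in diabetic mice, 3.30 and 3.48 in TSA-treated mice, and 3.00 and 2.98 in non-diabetic mice. Both diabetic arrays and both TSA-treated arrays were above both non-diabetic arrays, and diabetic and TSA-treated arrays overlapped. The difference was 0.26 between diabetic and non-diabetic mice (95% interval -0.15 to 0.67, adjusted p = 0.895 from limma), 0.40 between TSA-treated and non-diabetic mice (-0.01 to 0.81, adjusted p = 0.354) and -0.14 between diabetic and TSA-treated mice (-0.55 to 0.27, adjusted p = 0.925). All 6 values read near background, as described below, and the highest was that of TSA-treated replicate 2. Nothing is therefore read from the larger mean of TSA-treated mice.

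Rbpjl, a DNA-binding subunit of the mature PTF1 complex, was read by 2 probe sets. At 1450433_at it had 4.31 and 4.07 in diabetic mice, 3.89 and 4.18 in TSA-treated mice, and 3.77 and 3.89 in non-diabetic mice. The diabetic arrays stood above the non-diabetic arrays by 0.36 in the mean (-0.10 to 0.82, adjusted p = 0.840 from limma) and overlapped with the TSA-treated ones. At 1421956_at Rbpjl had 3.86 and 3.72 in diabetic mice, 3.84 and 4.03 in TSA-treated mice, and 3.64 and 3.74 in non-diabetic mice. Here diabetic and non-diabetic arrays overlapped, with a difference of 0.10 (-0.30 to 0.51), so that the 2 probe sets shared a sign but not a separation of the arrays.

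Partners that PTF1 takes from the common pool of factors were measured too, and none was called by limma (with Ptf1a and Rbpjl, 1, 2 and 1 of 6 at an unadjusted p under 0.05 in the 3 comparisons). Of the 4 partners that are not members (Tcf3, Tcf4, Tcf12 and Rbpj), Tcf4, an E protein also used by lymphocytes, had the largest difference between diabetic and non-diabetic mice. Its log2 level averaged 9.54 in diabetic mice, 9.26 in TSA-treated mice and 10.12 in non-diabetic mice, a difference of -0.59 between diabetic and non-diabetic mice (SE 0.16, adjusted p = 0.735 from limma) and of -0.86 between TSA-treated and non-diabetic mice (SE 0.16, adjusted p = 0.131).

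Bhlha15 is the factor of the secretory apparatus in acinar cells and is also expressed in plasma cells. At 1449233_at it had 5.31 and 5.48 in diabetic mice, 5.27 and 5.36 in TSA-treated mice, and 5.42 and 5.58 in non-diabetic mice. All 6 arrays lay within 0.31 of each other, and both non-diabetic arrays were above both TSA-treated arrays. The difference between diabetic and non-diabetic mice was -0.10 (-0.51 to 0.30, adjusted p = 1.00 from limma). Its second probe set, 1418800_at, had 3.55 and 3.25 in diabetic mice, 3.26 and 3.46 in TSA-treated mice, and 3.32 and 3.55 in non-diabetic mice, and the groups overlapped in every comparison.

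Genes that Bhlha15 is known to switch on in secretory cells did not pass the test either. Of the 12 such genes listed, 0 were called by limma in any comparison (0, 3 and 1 at an unadjusted p under 0.05), and their median difference was -0.02 between diabetic and non-diabetic mice, against 0.01 over all probe sets. Rab27b, a small GTPase of granule release, averaged 7.19 in diabetic mice, 6.72 in TSA-treated mice and 6.78 in non-diabetic mice (difference 0.41 between diabetic and non-diabetic mice, adjusted p = 0.843 from limma). Itpr3, a calcium channel of the endoplasmic reticulum, averaged 6.59 in diabetic mice, 5.74 in TSA-treated mice and 7.22 in non-diabetic mice (difference -0.63 between diabetic and non-diabetic mice, adjusted p = 0.855). The plasma cell list, whose cells share Bhlha15, gave 0 called of 14 in each comparison by limma (1, 7 and 4 at an unadjusted p under 0.05). Its summed linear level was 13700 and 14600 in diabetic mice, 12600 and 9970 in TSA-treated mice, and 13900 and 14200 in non-diabetic mice, and the part of plasma cells in the level of Bhlha15 was not tested.

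Nr5a2 (LRH-1), the orphan nuclear receptor that binds beside PTF1, was read by 4 probe sets, and none separated diabetic from non-diabetic mice. At 1449706_s_at it had 3.69 and 3.84 in diabetic mice, 3.70 and 4.56 in TSA-treated mice, and 3.79 and 3.61 in non-diabetic mice. A single array, TSA-treated replicate 2, stood above the other 5. The difference was 0.06 between diabetic and non-diabetic mice (-0.66 to 0.79, adjusted p = 1.00 from limma) and 0.43 between TSA-treated and non-diabetic mice (-0.30 to 1.16, adjusted p = 0.572).

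At 1449707_at Nr5a2 had 2.74 and 2.45 in diabetic mice, 2.86 and 3.14 in TSA-treated mice, and 2.56 and 2.52 in non-diabetic mice, with the TSA-treated arrays above all others (difference to non-diabetic mice 0.45, adjusted p = 0.352 from limma). The other 2 probe sets overlapped in every comparison. They had 2.85 and 3.09 in diabetic mice, 2.73 and 3.26 in TSA-treated mice, and 2.91 and 3.34 in non-diabetic mice at 1420410_at. At 1456521_at the levels were 2.85 and 2.85 in diabetic mice, 2.96 and 2.85 in TSA-treated mice, and 2.85 and 2.62 in non-diabetic mice.

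Gata4, a zinc finger factor of the developing pancreas, gut and heart, was read by 2 probe sets that disagreed. At 1418863_at it had 2.99 and 3.34 in diabetic mice, 2.86 and 3.49 in TSA-treated mice, and 2.91 and 2.77 in non-diabetic mice. Diabetic arrays were above non-diabetic arrays, by 0.33 in the mean (-0.31 to 0.97, adjusted p = 0.950 from limma). At 1418864_at Gata4 had 2.44 and 2.76 in diabetic mice, 2.82 and 3.56 in TSA-treated mice, and 2.64 and 2.54 in non-diabetic mice. There diabetic and non-diabetic arrays overlapped (difference 0.01, -0.67 to 0.69), and TSA-treated arrays stood above both (difference to non-diabetic mice 0.60, -0.08 to 1.29, adjusted p = 0.393).

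Across the 5 factors, the differences of the 11 probe sets ran from -0.16 to 0.36 between diabetic and non-diabetic mice, and no upper end of an interval exceeded 0.97. Between TSA-treated and non-diabetic mice they ran from -0.19 to 0.60, and between diabetic and TSA-treated mice from -0.59 to 0.15. All but 1 of the probe sets read near background, where an array compresses a true difference. In 80 probe sets of olfactory and vomeronasal receptor genes, used here as genes that a spleen does not need, the 95th percentile lay between 3.96 and 4.31 on the 6 arrays. Bhlha15 at 1449233_at exceeded that percentile of its own array on 6 of 6 arrays, Rbpjl at 1450433_at on 2, Nr5a2 at 1449706_s_at on 1, and the other 8 factor probe sets on 0. Levels of different probe sets are not on 1 scale of abundance, so this places a probe set near background and ranks no gene against another.

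The high values of Nr5a2 and Gata4 in TSA-treated mice lay on the array with the widest gap between transcript ends. The signal of beta-actin at its 3′ end exceeded that at its 5′ end by 2.42 and 3.32 (log2) in diabetic mice, by 3.45 and 5.61 in TSA-treated mice, and by 2.35 and 2.05 in non-diabetic mice, and the 5.61 is that of TSA-treated replicate 2. This array was the highest of the 6 for 6 of the 14 member probe sets and for 33.9% of all probe sets. Its median over the olfactory and vomeronasal set was 3.00, where the other 5 arrays had 2.71 to 2.77. Its median over all probe sets was 3.95, the highest of the 6, where the lowest was 3.79. The part of RNA quality in these values was not tested.

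Other regulators of the pancreas did not pass the test. Of the 20 measured among 22 listed, 0 were called by limma in any comparison (1, 3 and 1 at an unadjusted p under 0.05), with a median difference of -0.10 between diabetic and non-diabetic mice. Hes1, a Notch target, averaged 5.34 in diabetic mice, 5.03 in TSA-treated mice and 5.78 in non-diabetic mice (difference -0.44 between diabetic and non-diabetic mice, adjusted p = 0.796 from limma). Creb3l1, a factor of the secretory pathway, averaged 3.90, 3.82 and 4.27 in the diabetic, TSA-treated and non-diabetic groups (difference -0.37, adjusted p = 0.839).

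**Figure D2:**
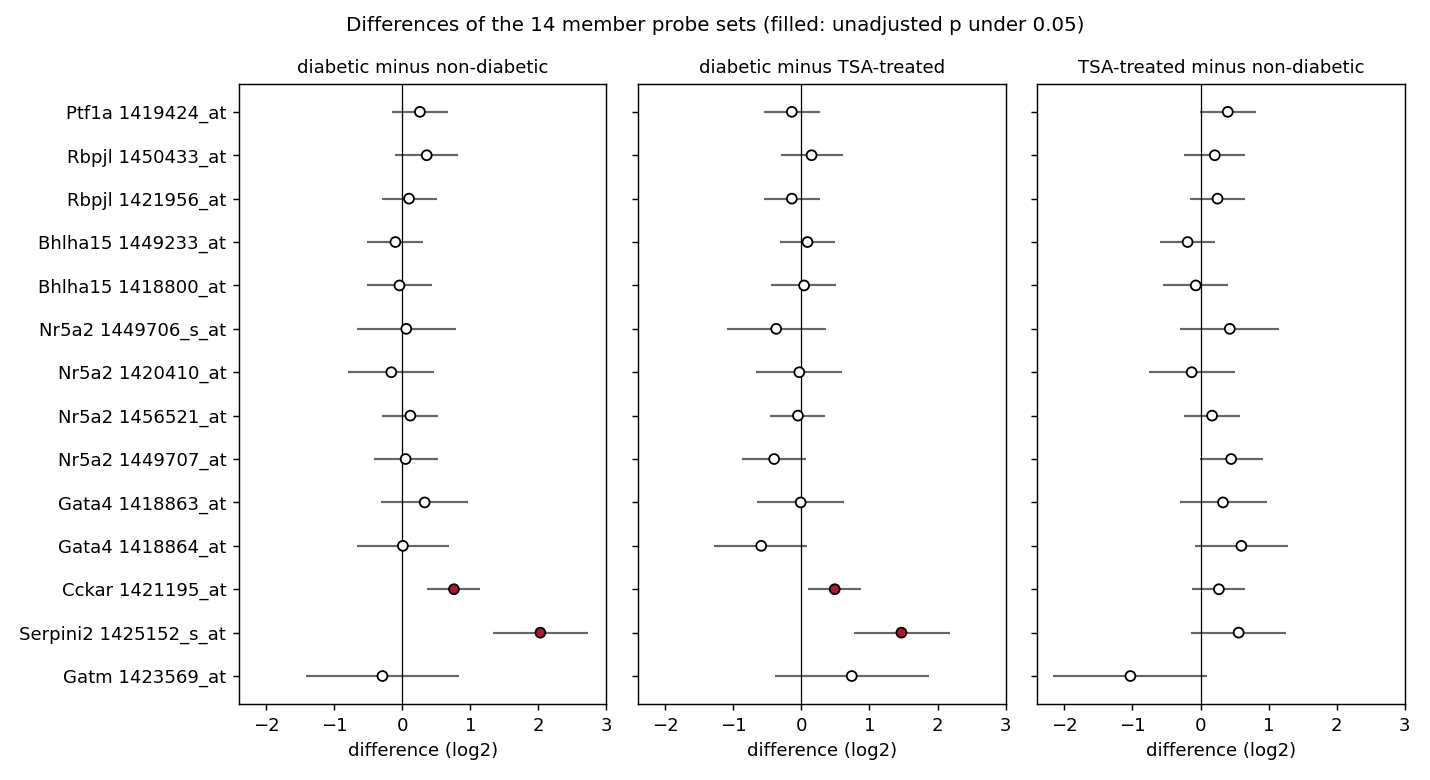
Difference of group means (log2, x axis) with its 95% interval from limma for the 14 member probe sets (rows) in the 3 comparisons (panels); filled points have an unadjusted p under 0.05 and no point has an adjusted p under 0.05. Serpini2 and Cckar are filled in both comparisons of diabetic mice, and the intervals of all factor probe sets include 0.

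Cckar separated all 3 groups by array, which no factor probe set did. It codes for the receptor through which cholecystokinin acts on rodent acinar cells. At 1421195_at it had 3.11 and 3.29 in diabetic mice, 2.71 and 2.71 in TSA-treated mice, and 2.47 and 2.42 in non-diabetic mice, so that no 2 groups overlapped. Of all probe sets, 21.6% were wholly higher in diabetic than in non-diabetic mice. The share was 26.3% for TSA-treated over non-diabetic mice and 11.4% for diabetic over TSA-treated mice. The order of the means was that of the enzymes, as it was for Rbpjl at 1450433_at. For Cckar the difference was 0.76 between diabetic and non-diabetic mice (SE 0.16, 95% interval 0.37 to 1.14, unadjusted p = 0.00309 and adjusted p = 0.706 from limma). It was 0.27 between TSA-treated and non-diabetic mice (-0.12 to 0.65, adjusted p = 0.509) and 0.49 between diabetic and TSA-treated mice (0.10 to 0.88, unadjusted p = 0.0211, adjusted p = 0.902). All 6 values lay under the 95th percentile of the olfactory and vomeronasal set on their own arrays, so these differences are between values near background.

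The other receptors through which acinar cells are stimulated did not pass the test. Of 13 listed, among them those for secretin, acetylcholine and vasoactive intestinal peptide, 0 were called by limma in any comparison (0, 2 and 1 at an unadjusted p under 0.05), and the median difference between diabetic and non-diabetic mice was -0.06. Ptger3, a prostaglandin E receptor, had 4.35 and 5.60 in diabetic mice, 5.65 and 5.15 in TSA-treated mice, and 4.26 and 4.26 in non-diabetic mice (difference 0.72 between diabetic and non-diabetic mice, adjusted p = 0.871 from limma). Its 2 diabetic arrays lay further apart than the group means. Fgfr1, a receptor of fibroblast growth factors, had 4.43 and 3.80 in diabetic mice, 4.02 and 4.31 in TSA-treated mice, and 4.56 and 4.50 in non-diabetic mice (difference -0.41, adjusted p = 0.879).

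Serpini2 (pancpin), a serine protease inhibitor made and secreted by acinar cells, had the largest differences of the list. At 1425152_s_at its log2 level was 4.61 and 5.40 in diabetic mice, 3.39 and 3.67 in TSA-treated mice, and 2.92 and 3.02 in non-diabetic mice. No groups overlapped, and both diabetic arrays lay above the 95th percentile of the olfactory and vomeronasal set while the other 4 arrays lay below it. The difference was 2.03 between diabetic and non-diabetic mice (SE 0.29, 95% interval 1.33 to 2.73, unadjusted p = 0.000411 and adjusted p = 0.325 from limma). Since the non-diabetic values are near background, no exact fold is given. It was 0.56 between TSA-treated and non-diabetic mice (-0.14 to 1.26, adjusted p = 0.442) and 1.47 between diabetic and TSA-treated mice (0.77 to 2.18, unadjusted p = 0.00219, adjusted p = 0.902).

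Serpini2 passed only in a fit that left out 1 array. Without untreated diabetic replicate 1, the lower of the pair, the difference between diabetic and non-diabetic mice was 2.43. That fit holds 1 diabetic array and called more probe sets across the array too, so the pass is not particular to Serpini2. Without untreated diabetic replicate 2 the difference was 1.64, and under every other alternative it stayed between 1.98 and 2.09 without passing. The 2 diabetic hybridizations differed by 0.79 for Serpini2, with replicate 2 the higher, and replicate 2 was also the higher for 9 of the 17 enzymes.

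Enzymes and other secreted products were set beside the members. Since enzyme transcripts are much more abundant in the acinar cell than those of regulators, the sizes of their differences are not directly comparable. Of 17 digestive enzymes, 14 rose in diabetic mice and 9 in TSA-treated mice against non-diabetic mice, and 6 exceeded their TSA-treated level in diabetic mice, with 0 lower in any comparison. The 6 calls between diabetic and TSA-treated mice depended on the fit: 0 probe sets of the array were called in that comparison with a replicate block, in a fit of these 2 groups alone, with median centring, or without any 1 array other than TSA-treated replicate 1. Between TSA-treated and non-diabetic mice 0 were called without either non-diabetic array. Cpb1, a carboxypeptidase, had 11.26 and 11.53 in diabetic mice, 9.07 and 9.11 in TSA-treated mice, and 3.91 and 3.82 in non-diabetic mice. Against non-diabetic mice it was higher by 7.53 in diabetic mice (limma, adjusted p = 0.000177) and by 5.23 in TSA-treated mice (adjusted p = 0.00203). Clps, the colipase that pancreatic lipase needs, averaged 12.37 in diabetic mice, 9.93 in TSA-treated mice and 4.47 in non-diabetic mice. Its differences to non-diabetic mice were 7.91 in diabetic mice (limma, adjusted p = 0.000177) and 5.47 in TSA-treated mice (adjusted p = 0.00210).

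The elastase gene Cela3b exceeded its non-diabetic level by 6.91 in diabetic mice (limma, adjusted p = 0.000177) and by 4.39 in TSA-treated mice (adjusted p = 0.00243). Cpa1, another carboxypeptidase, did so by 6.98 (adjusted p = 0.000705) and by 3.66 (adjusted p = 0.0185) in the same order. Median differences of the enzymes were 5.89 between diabetic and non-diabetic mice, 2.93 between TSA-treated and non-diabetic mice and 2.52 between diabetic and TSA-treated mice. Those of the 8 members, each by the probe set with its highest mean, were 0.29, 0.30 and 0.12, and those over all probe sets 0.01, 0.05 and -0.02.

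Other acinar secretory genes spanned the gap. Of 20 measured, 7 rose in diabetic mice and 5 in TSA-treated mice against non-diabetic mice, 0 fell, and 0 were called between diabetic and TSA-treated mice. Sycn, a protein of the zymogen granule membrane, exceeded its non-diabetic level by 7.09 in diabetic mice (limma, adjusted p = 0.000370) and by 4.37 in TSA-treated mice (adjusted p = 0.00598). In the same order, the granule protein Zg16 rose by 6.39 and 4.28 (adjusted p = 0.000902, then 0.00805). Dmbt1, a secreted mucin-like scavenger protein, rose by 5.02 and 3.21 (adjusted p = 0.000619, then 0.00716). Reg1, a secreted lectin-like protein, rose by 6.26 and 4.59 (adjusted p = 0.00143, then 0.00805).

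No gene of either list was called between diabetic and non-diabetic mice with a difference under 3.28, and 2 genes, Ctrb1 and Gp2, went uncalled above that. Serpini2 at 2.03 and Cckar at 0.76 lay in the same stretch as several uncalled acinar genes of low level, named here after their values were seen. Prss3, a trypsinogen, had 4.18 and 4.35 in diabetic mice, 3.61 and 3.65 in TSA-treated mice, and 2.60 and 2.37 in non-diabetic mice, a difference of 1.78 between diabetic and non-diabetic mice (adjusted p = 0.0504 from limma). Tff2, a trefoil peptide, had 4.92 and 4.79 in diabetic mice, 3.85 and 4.19 in TSA-treated mice, and 3.88 and 3.68 in non-diabetic mice (difference 1.07, adjusted p = 0.549). Not all acinar genes of low level lay in that stretch: the difference was 0.04 for Reg3a, -0.01 for Reg3b and -0.09 for Syt3.

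**Figure D3:**
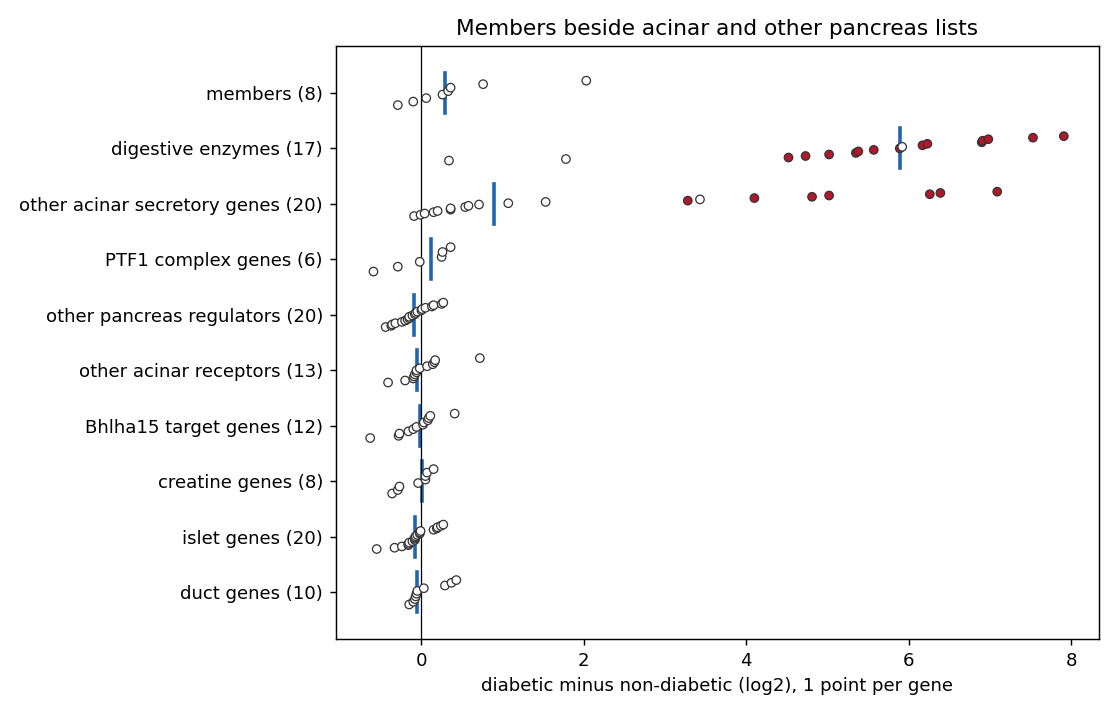
Difference between diabetic and non-diabetic mice (log2, x axis), 1 point per gene, for the 8 members and for 9 lists of pancreas genes (rows, number of genes measured in parentheses); filled points have an adjusted p under 0.05 from limma and blue bars are list medians, and the PTF1 complex row also holds Ptf1a and Rbpjl and the creatine row Gatm. Filled points occur in the enzyme and secretory rows, and the points of the regulator, receptor, islet and duct rows lie between -0.59 and 0.72.

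On the linear scale, the excess of TSA-treated over non-diabetic mice was 14.8% of the excess of diabetic over non-diabetic mice for Serpini2, from linear levels of 33.3 in diabetic mice, 11.6 in TSA-treated mice and 7.85 in non-diabetic mice. The 23 enzyme and secretory genes with a difference of at least 2 between diabetic and non-diabetic mice had shares from 4.88% to 33.2%, with a median of 15.7%, and 11 of them were below Serpini2. Genes with smaller differences are left out of this range. Where a share was formed for the enzyme and secretory genes left out, it ran from 5.96% (Tmed6) to 357% (Reg2, named after its value was seen). Reg2 averaged a log2 level of 5.16 in diabetic mice, 6.05 in TSA-treated mice and 4.59 in non-diabetic mice. For several of the genes left out, Cckar among them, the excesses are small beside background. The share of Serpini2 has the same limit. Its TSA-treated excess was 3.76 linear units, where the diabetic excess of Cckar was 3.77. Its TSA-treated and non-diabetic arrays read near background, and the interval of their log2 difference (-0.14 to 1.26) has ends of opposite sign. Nothing is therefore read from the place of Serpini2 among the enzyme and secretory shares. Both excesses of a share use the same non-diabetic arrays, background adds to all 3 levels, and the shares are a description.

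Gatm makes guanidinoacetate, the precursor of creatine, and is strongly expressed in acinar cells and kidney. At 1423569_at it had 6.17 and 5.53 in diabetic mice, 5.48 and 4.75 in TSA-treated mice, and 5.57 and 6.71 in non-diabetic mice. Both TSA-treated arrays lay below the 4 others, and diabetic and non-diabetic arrays overlapped. The difference was -0.29 between diabetic and non-diabetic mice (-1.42 to 0.84, adjusted p = 1.00 from limma), -1.03 between TSA-treated and non-diabetic mice (-2.16 to 0.10, adjusted p = 0.381) and 0.74 between diabetic and TSA-treated mice (-0.39 to 1.87, adjusted p = 0.902). The non-diabetic duplicates of Gatm lay 1.15 apart (log2), the widest such gap among the 14 probe sets in that group, and no difference exceeded it. The sign between diabetic and non-diabetic mice rested on single arrays: it was 0.28 without untreated non-diabetic replicate 2 and 0.03 without untreated diabetic replicate 2. Of the 8 creatine genes listed, Gatm included, 0 were called by limma in any comparison (0, 1 and 0 at an unadjusted p under 0.05), and their median differences were 0.00, 0.09 and -0.08 in the 3 comparisons. Ckb, the brain-type creatine kinase, averaged 5.62 in diabetic mice, 5.17 in TSA-treated mice and 5.98 in non-diabetic mice (difference -0.36 between diabetic and non-diabetic mice, adjusted p = 0.906 from limma).

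Counted over the list, 10 of the 14 probe sets had a difference above 0 between diabetic and non-diabetic mice, where 52.3% of all probe sets did, and 5 had diabetic arrays wholly above non-diabetic arrays, where 21.6% did (0 were wholly below, where 19.4% were). Between TSA-treated and non-diabetic mice, 10 were above 0 (57.2% of all probe sets), 7 were wholly above (26.3%) and 2 wholly below (21.5%). Between diabetic and TSA-treated mice, 6 were above 0 (45.8%), 3 wholly above (11.4%) and 2 wholly below (16.2%). The 14 probe sets stem from 8 genes and are not independent, and nothing is read from these shares.

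Likeness over the 6 arrays was measured for the 2 members with a difference of at least 1 between any groups, as the root mean square difference (log2) between profiles after each probe set's mean is removed, over 18185 genes. The genes most like Serpini2 were Gzma (0.24), a protease of cytotoxic lymphocytes, Tmed6 (0.29), a trafficking protein of the acinar list, and Vtn (0.38), a plasma adhesion protein. Gzma had 8.03 and 8.69 in diabetic mice, 6.92 and 7.12 in TSA-treated mice, and 6.93 and 6.76 in non-diabetic mice. Tmed6 had 3.80 and 4.52 in diabetic mice, 2.96 and 2.60 in TSA-treated mice, and 2.58 and 2.67 in non-diabetic mice. Like Serpini2, Gzma and Tmed6 were higher on the second than on the first diabetic array, and none of these 3 genes was called between diabetic and non-diabetic mice (adjusted p = 0.528, 0.594 and 0.119 for Gzma, Tmed6 and Vtn from limma). The genes most like Gatm were Pik3cg (0.16), a lipid kinase of leukocytes, and the small GTPases Rab27a and Rab12 (0.22 each).

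Markers of other cells of the pancreas did not pass the test. Of 20 islet genes and 10 duct genes measured, 0 were called by limma in any comparison and 0 reached an unadjusted p under 0.05, with medians of -0.07 and -0.05 between diabetic and non-diabetic mice. The summed linear level of the islet list was 199 and 206 in diabetic mice, 208 and 244 in TSA-treated mice, and 212 and 215 in non-diabetic mice. Spleen lymphocyte markers were well expressed on all arrays, with array medians from 8.66 to 10.35 over 10 genes. The lowest was again TSA-treated replicate 2. Between TSA-treated and non-diabetic mice 0 of the 10 differences were above 0, with a median of -1.0, and 0 of the 10 were called by limma (1, 7 and 4 at an unadjusted p under 0.05). Cd79a, a B cell receptor subunit, differed by -3.10 (SE 0.75), with 7.70 and 5.42 in TSA-treated mice and 9.58 and 9.75 in non-diabetic mice. Cd74, the invariant chain, differed by -2.43 (SE 0.91), with 11.45 and 8.38 against 12.33 and 12.36. In both genes the lower TSA-treated value was that of replicate 2. Of 11 adipocyte genes, 2 were called lower in TSA-treated than in non-diabetic mice: Car3 by 3.90 (limma, adjusted p = 0.00460) and Adipoq by 3.40 (adjusted p = 0.00706). With diabetic mice set against TSA-treated mice, their differences were 3.18 and 3.06 (adjusted p = 0.0448 each), calls that depended on the fit like those of the enzymes. The 11 genes did not move as 1: their median between TSA-treated and non-diabetic mice was -0.17, with 3 differences above 0. At an unadjusted p under 0.05 from limma, 2, 5 and 4 of them passed in the 3 comparisons. Hepatocyte and the joint mesothelial and stellate lists gave 0 called of 9 and 0 of 13 in each comparison by limma, with 0, 1 and 1 and with 2, 3 and 2 at an unadjusted p under 0.05. Their part in the levels of the members was not tested.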

How the data were processed

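Total RNA from spleens was pooled within each of 3 groups, and each pool was labelled and hybridized to 2 Affymetrix mouse genome arrays. The authors made the arrays comparable through quantile normalization, with RMA as the summary of probes, and the deposited values are log2 levels per probe set. No genome build is given in the sources used here. The table holds 45101 probe sets, of which 64 controls were left out and 45037 tested; 34945 name 1 gene, 932 several and 9160 none.

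All 6 arrays were fitted with limma 3.58.1 in R 4.3.3 (1 mean per group, 3 residual and 2.94 prior degrees of freedom, Benjamini-Hochberg adjustment within each comparison). Calls were made below an adjusted p of 0.05. The fit was tested on simulated data. Signal over background limits precision at low levels.

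All member probe sets are named. A gene of a companion list was read by its probe set with the highest mean; up to 4 called genes per list are named by the largest difference, or else the 2 with the largest difference between diabetic and non-diabetic mice. For members that differ by at least 1 between any groups, the 3 most alike genes are named. Members and lists were chosen with earlier results of these data known. Alternatives were a replicate block, leaving out each array, a fit of the compared groups alone, an intensity trend or robust variances in limma, the methods' t-test, an adjusted p under 0.001, 2 filters on level (a linear level over 10 in at least 2 arrays, or a mean above the median probe set), median centring, gene means and a repeated quantile normalization. A crossed replicate block was added after seeing the data.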

Additional observations from a re-analysis of the deposited data

How the results depend on the processing

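Of 648 member differences recomputed under the alternatives, 618 kept their direction and their side of the threshold, 1 newly passed (Serpini2 between diabetic and non-diabetic mice without untreated diabetic replicate 1) and 29 changed sign, in 15 differences of at most 0.37 in size. Many alternatives change only the fit, the test, a filter or the cut-off, or leave out an array of the third group. These return the same difference and cannot turn a sign, and the stricter cut-off cannot add a call. The 618 is therefore in large part fixed in advance. The count of called member probe sets was 0 in the 3 comparisons under every alternative run, except 1 without untreated diabetic replicate 1, so that leaving out 1 array gave 0 to 1 between diabetic and non-diabetic mice.

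Over all probe sets, 40 were called between diabetic and non-diabetic mice, 31 between TSA-treated and non-diabetic mice and 12 between diabetic and TSA-treated mice. Leaving out 1 array gave 23 to 243, 0 to 2045 and 0 to 1047. The first count was 243 without untreated diabetic replicate 1, 23 without untreated diabetic replicate 2 and 24 without either non-diabetic array. The second was 714 without either diabetic array, 2045 without TSA-treated replicate 1 and 0 without either non-diabetic array, and the third 1047 without TSA-treated replicate 1 and 0 without any other array. The methods' t-test gave 1, 2 and 0 after adjustment (2667, 5241 and 1359 at an unadjusted p under 0.05), an adjusted p under 0.001 gave 20, 0 and 0, and gene means gave 25, 141 and 21. A fit of the compared groups alone gave 714 between TSA-treated and non-diabetic mice and 0 between diabetic and TSA-treated mice. Quantile normalization again gave 60 between TSA-treated and non-diabetic mice. Between diabetic and TSA-treated mice each filter on level gave 22 and median centring 0. The cause of these shifts was not tested.

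With the replicate number as a block the counts were 33, 30 and 0, and with crossed numbers, chosen after seeing the data, 41, 27 and 0. Deviations of same-numbered arrays correlated at -0.335 between diabetic and non-diabetic, -0.0363 between TSA-treated and non-diabetic and -0.105 between diabetic and TSA-treated mice. None of these is positive, and a batch shared across groups in another pairing was not tested. Member calls stayed at 0 with either block.

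Signs turned for small differences. With each array centred on its median, Bhlha15 1418800_at became 0.02 between diabetic and non-diabetic mice, and between diabetic and TSA-treated mice Gata4 1418863_at became 0.02 and Nr5a2 1420410_at 0.00. With quantile normalization again, diabetic minus TSA-treated became -0.04 for Bhlha15 1449233_at, 0.05 for Nr5a2 1420410_at, 0.00 for Nr5a2 1456521_at and 0.07 for Gata4 1418863_at. Leaving out 1 array, diabetic minus non-diabetic ran from -0.19 to 0.12 (Bhlha15 1418800_at), -0.02 to 0.15 (Nr5a2 1449706_s_at), -0.37 to 0.05 (Nr5a2 1420410_at), 0.00 to 0.23 (Nr5a2 1456521_at), -0.10 to 0.20 (Nr5a2 1449707_at), -0.15 to 0.17 (Gata4 1418864_at) and -0.86 to 0.28 (Gatm). TSA-treated minus non-diabetic ran from -0.19 to 0.04 (Bhlha15 1418800_at) and -0.39 to 0.14 (Nr5a2 1420410_at). Diabetic minus TSA-treated ran from -0.12 to 0.19 (Bhlha15 1418800_at), -0.79 to 0.06 (Nr5a2 1449706_s_at), -0.30 to 0.24 (Nr5a2 1420410_at) and -0.32 to 0.31 (Gata4 1418863_at).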
